A study of Mus musculus with 4 samples.

Results

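The cytosolic ribosomal protein genes encode the protein part of the ribosome that translates nuclear messenger RNA. They were taken by symbol, as genes named Rps or Rpl with a digit after it plus Rpsa, Rplp0, Rplp1 and Rplp2, without the Rps6k kinases and without pseudogenes ending in -ps. This gave 89 of the 22911 genes named on the array. Rps19bp1, a binding partner of Rps19 that is not part of the ribosome, was set apart, which left 88 members on 151 probes. Of these, 31 belonged to the small subunit, 43 to the large subunit and 3 to the stalk, and 11 were paralogs, extra gene copies of ribosomal proteins. The paralogs included Rps23rg1, a retrogene grouped there after its values were seen, and Rps4l, which RefSeq classes as a transcribed pseudogene.

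Total RNA was measured in mesenchymal stroma cells (MSCs) and CD8+ T cells from subcutaneous Bcr-Abl+ tumors of wild type (Wt) and Sipa1 knockout (Sipa1-/-) mice. All mice were of strain C57BL/6Ncr and 8 weeks old, and all had received Bcr-Abl+ hematopoietic progenitor cells in Matrigel under the skin, with tumors collected on day 12. MSCs were the cells lacking GFP, CD45, Ter119 and CD31, a gate that asks for no mesenchymal marker, and CD8+ T cells lacked GFP and carried TCRb and CD8. The series used 5 mice per genotype but holds 1 single-color array for each of the 4 conditions, and the labels do not say whether RNA of several mice was pooled, so no difference had a replicate check and none was tested.

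A ribosome needs each of its proteins in about equal number, and the genes that encode them are among the most strongly transcribed in growing cells. Many of their messenger RNAs belong to the TOP class, which starts with a C followed by a run of pyrimidines (C or T in the gene) and whose translation is controlled by mTORC1 and Larp1. Some members have further roles, such as Rpl5 and Rpl11, which bind Mdm2 when ribosome assembly is disturbed, and Rps19, the gene most often mutated in Diamond-Blackfan anemia.

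The start of transcription shows sequence features that a part of the members share, and the rule did not use them. RefSeq promoter windows of assembly GRCm38.p6 were found for 67 of the 88 members, with 79 windows among them. Of these windows, 14 began transcription at a C followed by 4 more letters that were each C or T, or 17.7%, against 2.51% of all 32851 windows in the table. A stretch of 6 letters, a C and then only C or T, lay between 10 bases before and 15 bases after the start in 37 member windows. That was 46.8% of member windows, against 18.5% of all windows. The letters CTTTCC lay between 10 bases before and 15 bases after the start in 10 member windows (12.7%) and in 1.04% of all windows. On the other strand these letters were in 0 member windows and in 1.04% of all windows. A match, or the lack of one, describes the letters at an annotated start and not a site shown to be used. The starts below were chosen to show members with the run, most of them described in the results, and members without it. Of the 57 members other than paralogs that had windows, 44 lacked a run beginning at the start, and Rps3, Rpl5, Rpl11 and Rpl13a stand for them here. Each shows 15 bases before and 15 bases from the annotated start, 5′ to 3′, with the pyrimidine run from the start in capitals.
Rps6 (chr4:86857353-86857382, minus strand): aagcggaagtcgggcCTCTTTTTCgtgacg
Rps15a (chr7:118116133-118116162, minus strand): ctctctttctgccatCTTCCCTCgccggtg
Rps21 (chr2:180257364-180257393, plus strand): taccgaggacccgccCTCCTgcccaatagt
Rps27 (chr3:90213634-90213663, minus strand): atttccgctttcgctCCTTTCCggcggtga
Rpl15 (chr14:18270972-18271001, minus strand): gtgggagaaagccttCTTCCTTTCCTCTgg
Rpl35 (chr2:39005117-39005146, minus strand): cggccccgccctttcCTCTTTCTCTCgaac
Rpl38 (chr11:114668565-114668594, plus strand): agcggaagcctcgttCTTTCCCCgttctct
Rplp2 (chr7:141447636-141447665, plus strand): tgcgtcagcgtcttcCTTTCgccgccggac
Rps3 (chr7:99483695-99483724, minus strand): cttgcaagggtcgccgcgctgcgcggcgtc
Rpl5 (chr5:107900513-107900542, plus strand): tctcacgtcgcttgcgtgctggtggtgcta
Rpl11 (chr4:136053379-136053408, minus strand): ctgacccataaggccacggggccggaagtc
Rpl13a (chr7:45128731-45128760, minus strand): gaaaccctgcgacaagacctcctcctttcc
Rpl39l (chr16:10170213-10170242, plus strand): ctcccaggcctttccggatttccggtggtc
Rps27l (chr9:66946071-66946100, plus strand): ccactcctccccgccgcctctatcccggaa
Rps24 (chr14:24490663-24490692, plus strand): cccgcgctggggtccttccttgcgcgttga
The first 8 of these starts opened with such a run, between 5 letters in Rps21 and Rplp2 and 13 letters in Rpl15. The other starts shown lacked it, those of ordinary members as well as those of Rpl39l, Rps27l and Rps24, which stood apart from the family in the values below. In Rps24 the letters ccttcctt spanned the annotated start. In Rpl13a the letters cctcctcctttcc lay shortly after the start. In Rpl39l and Rps27l the letters cctttcc and cctcccc lay shortly before it. Rps21, Rps24 and Rps27l each had a further annotated start without the run.

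Signals are given as levels, log2 signal minus the 75th percentile of the array, so that 0 is that percentile and a level compares 1 probe between arrays and does not rank genes. A log2 ratio is the difference of 2 levels, averaged over the probes of a gene that passed the flags on both arrays, and a ratio of 1 is 2-fold. Member spots passed all flags for 95.8% to 97.4% of spots per array, and 0 of them was saturated. In MSCs the member spots gave 18.5% of all signal in Wt and 16.8% in Sipa1-/- mice. In CD8+ T cells they gave 22.3% and 21.9%. These shares count every spot, and the 151 member probes filled 691 of 59305 spots because many were printed repeatedly. They depend on the layout of the array and are not shares of the RNA. Among 60 member probes printed on at least 10 spots, the median SD of the log2 ratio between spots was 0.033 in the MSC pair and 0.027 in the CD8+ T pair, a measure of spot noise that leaves out differences among mice. Both Sipa1 probes were lower on the Sipa1-/- arrays, by log2 differences from -1.25 to -2.05. On the MSC arrays 10 of 11 measured fibroblast markers were higher than on the CD8+ T arrays in Wt, with Thy1 the exception, and 11 of 11 measured T cell markers were lower. Mouse ribosomal protein genes have many processed copies elsewhere in the genome, and binding of copies to these probes was not tested.

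In MSCs nearly the whole family sat slightly lower on the Sipa1-/- array than on the Wt array. Of the 88 members, 87 passed the flags, and 82 of them had a log2 ratio below 0, against 48.2% of all 15298 genes measured and 52.9% of the 1449 other genes in the top 10% of signal. Their median log2 ratio was -0.36, a signal 21.9% lower, and the quartiles were -0.43 and -0.21. The median over all genes was 0.04 with quartiles of -0.51 and 0.75, so that the members spanned a far narrower range than genes at large. The shift was small for each gene. No member was 2-fold lower, against 11.3% of all genes, and 2 members were at least 2-fold higher, against 19.3% of all genes. Both of the latter, Rpl39l and Rps4l, were paralogs.

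The subunits behaved alike. The median log2 ratio was -0.36 in the small subunit, where 30 of 31 members were below 0, and -0.36 in the large subunit, where 43 of 43 were. The stalk proteins, which recruit the elongation factors, had a median of -0.24. Among the 77 members other than paralogs, 63 lay within 0.2 log2 units of the median of these 77. Members fill the top of the signal range, and 81 of them lay in the top 10% of genes by mean signal. The other 1449 genes of that set had a median of -0.06 with quartiles from -0.55 to 0.74.

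**Figure D1:**
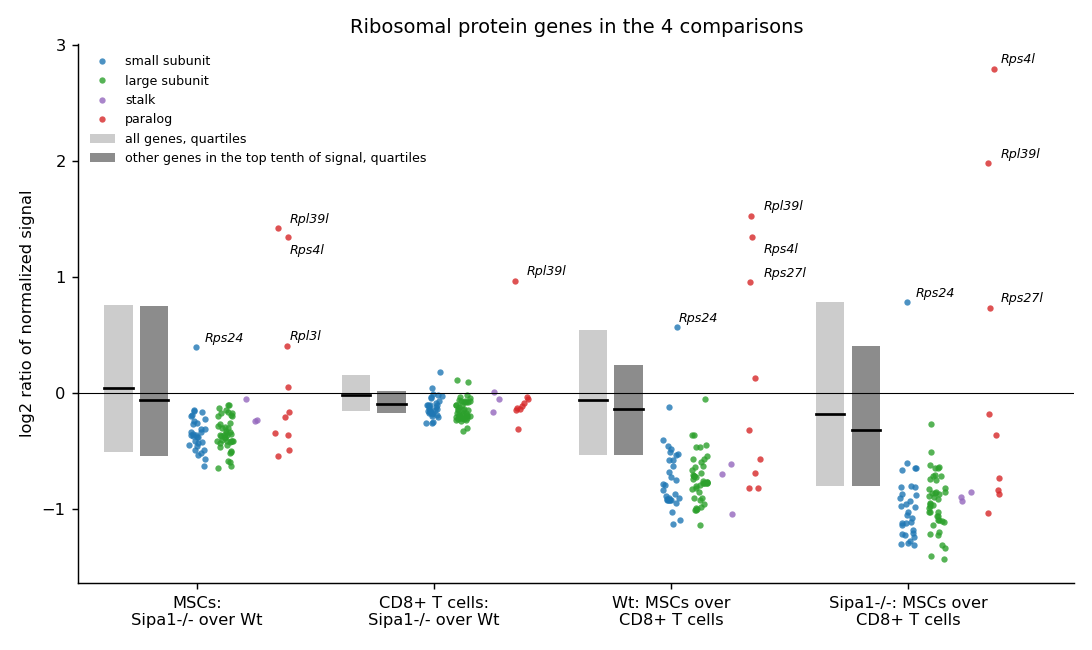
Log2 ratio of normalized signal (vertical axis) of each member in the 4 comparisons, with 1 point per gene colored by role, beside bars from the lower to the upper quartile of all genes and of the other genes in the top 10% of mean signal (black lines are medians). The members form a narrow band below 0 in each comparison, and Rpl39l, Rps4l, Rps24 and Rps27l lie above it in 1 or more comparisons; the value of Rps24 averages 3 probes that disagree.

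Values of single members show how far the shift varied. Rps6, the protein phosphorylated by the S6 kinases, had a level of 6.62 in Wt and 6.08 in Sipa1-/- MSCs, a ratio of -0.54. Rps3, which lines the entry channel of the messenger RNA, went from 7.20 to 6.82 with a ratio of -0.38. Rps19 went from 7.72 to 7.20, a ratio of -0.52. All 3 were lower on the Sipa1-/- array by more than the spot noise. Rps27a, made as a fusion with ubiquitin, had levels of 8.03 and 7.67 on its brighter probe and a ratio of -0.36. Rpsa, also known as the laminin receptor, went from 7.98 to 7.52 and had a ratio of -0.46. Rps27a lay at the family's median and Rpsa below its lower quartile.

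In the large subunit, Rpl5 had levels of 5.76 and 5.50, and Rpl11 had 8.03 and 7.61. Their ratios were -0.26 and -0.43. These proteins enter the ribosome together with the 5S RNA, and both were lower on the Sipa1-/- array. Rpl22, needed for the development of αβ T cells, went from 6.22 to 5.71 with a ratio of -0.51. Rpl38, known from its part in the translation of Hox messenger RNAs, went from 7.88 to 7.68 with a ratio of -0.20. Rpl10, which joins the large subunit late, went from 8.28 to 8.15 with a ratio of -0.13. The last 2 were among the smaller differences.

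Among the lowest ratios in MSCs were those of Rpl13a, Rpl27, Rpl3 and Rpl18. Rpl13a, which also acts outside the ribosome in the interferon-gamma-activated inhibitor of translation, went from 6.89 to 6.24 and had a ratio of -0.65 on 1 probe. Rpl27 went from 6.46 to 5.83 with a ratio of -0.63. Rpl3, which lies at the peptidyl transferase center, went from 5.95 to 5.35 with -0.60, and Rpl18 from 6.51 to 5.92 with -0.59. Even these 4 were less than 2-fold lower. Among the stalk proteins Rplp0 went from 7.68 to 7.43 (-0.25), Rplp1 from 7.51 to 7.45 (-0.06) and Rplp2 from 8.25 to 8.01 (-0.24). Rplp1 was nearly level, and its 2 probes had ratios of -0.06 and -0.05.

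The size of the family's shift depends on how arrays are scaled. Its median stayed below 0 in every alternative run, at -0.49 with arrays centered on their median, -0.15 with the series matrix values and -0.091 after quantile normalization. Relative to the median of all genes it was -0.40 in the main setting and -0.0997 after quantile normalization, a method that gives the brightest spots of all arrays the same values, and members are among the brightest spots. The count of members below 0 also depended on the scaling. It was 65 of 87 with the series matrix values and 67 of 87 after quantile normalization.

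Markers of several other cell types differed by more than the ribosomal proteins on the same 2 arrays, where 48.2% of all genes were lower, 11.3% were at least 2-fold lower and 19.3% at least 2-fold higher. Each of the 13 B-lineage genes that passed the flags had less signal in Sipa1-/- MSCs, with a median of -4.22 and summed levels of 9.60 in Wt and 5.92 in Sipa1-/- cells, and Rag1 did not pass the flags. All 14 cell cycle genes were lower, with a median of -2.03 and summed levels of 7.80 and 5.90, and all 10 common leukocyte genes were lower, with a median of -1.99 and summed levels of 7.54 and 5.70. All 11 measured fibroblast markers were higher, with a median of 1.56 and summed levels of 9.95 and 10.66, while Pdgfra did not pass the flags. The medians were 0.22 for granulocyte, -0.03 for endothelial and -0.02 for erythroid markers. None of the 9 granulocyte or 4 measured erythroid markers was past 2-fold. The endothelial median hides a split list. Its 5 markers ran from -1.49 to 1.71, with 2 past 2-fold upward and 1 downward. These markers were dim, with median levels of -2.94 in Wt and -2.96 in Sipa1-/- MSCs. T cell markers were higher for 8 of 11, with a median of 0.66, while their summed level was 4.31 in Wt and 2.14 in Sipa1-/- MSCs. Most of the Wt sum was Cd2, which went from 4.08 to 0.56 (-3.52). Lck (-1.07) and Zap70 (-1.59) were lower as well, and 4 of the markers were at least 2-fold higher. The fall of the sum thus does not describe the list. The part of these cells in the ribosomal protein values was not tested, and in such bulk samples fewer cells of a type and less RNA per cell cannot be told apart.

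In CD8+ T cells the family also lay below 0, with a smaller shift. Of 86 members that passed the flags, 80 had a log2 ratio below 0, against 53.9% of all 14339 genes and 72.2% of the 1353 other genes in the top 10% of signal. The median was -0.14, a signal 9.48% lower on the Sipa1-/- array, with quartiles of -0.20 and -0.08, and the median over all genes was -0.02. No member was 2-fold higher, against 2.66% of all genes, and no member was 2-fold lower, against 1.4% of all genes. The small subunit had a median of -0.13 and the large subunit -0.17. The other genes in the top 10% of signal had a median of -0.09, nearer to that of the members than in MSCs. On the same arrays all 12 fibroblast markers were higher in Sipa1-/- cells (median 1.61, summed levels 7.70 in Wt and 8.25 in Sipa1-/- cells) and all 9 granulocyte markers were lower (median -1.33, summed levels 9.31 and 8.38), while T cell markers had a median of 0.01 and cell cycle genes of -0.14. Thy1 (7.37 and 7.46, ratio 0.09) made up most of the fibroblast sums, which therefore understate the rise of the other markers. At least 2-fold higher were 11 of these 12, against 2.66% of all genes. B-lineage markers were lower for 10 of 12 (median -0.21, summed levels 5.23 and 4.76), with Vpreb1 at -2.04, Igll1 at -2.21 and Vpreb3 at -1.82, and erythroid markers for 3 of 3 (median -1.09). The part of these cells in the values was not tested.

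Among the lowest ratios in CD8+ T cells were those of Rpl36a (7.03 in Wt and 6.70 in Sipa1-/- cells, ratio -0.33), its paralog Rpl36al (5.41 and 5.10, -0.32), Rpl26 (6.79 and 6.48, -0.31) and Rps15a (3.55 and 3.29, -0.27). The level of Rps15a includes a dim probe at -4.73 and -5.16, and its other probes had ratios of -0.20 and -0.16. The highest ratios were in Rpl39l (0.96), Rps24 (0.17), Rpl37 (-4.13 and -4.02, 0.11), Rpl4 (7.54 and 7.63, 0.09) and Rps15 (7.84 and 7.87, 0.04). Apart from Rpl39l and Rps24 these lay close to 0.

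Members with known further roles differed little in CD8+ T cells. Rps6 went from 7.54 to 7.33 (-0.21), Rps3 from 8.13 to 7.96 (-0.17) and Rpl5 from 6.77 to 6.53 (-0.23). Rps19 went from 8.25 to 8.16 (-0.09), Rpl11 from 8.73 to 8.58 (-0.14) and Rpl22 from 6.86 to 6.78 (-0.08). Rps27a went from 8.70 to 8.55 (-0.15), Rpl38 from 8.65 to 8.58 (-0.08) and Rpl10 from 8.74 to 8.66 (-0.07). Each of these was lower, and each by less than in MSCs. Rpl13a, the lowest member in MSCs, was at 7.71 and 7.67 (-0.04), Rpsa at 8.62 and 8.60 (-0.01) and Rplp2 at 8.86 and 8.86 (0.01), each smaller than 2 spot SDs (0.055). Rplp0 was at 8.38 and 8.33 (-0.06) and Rplp1 at 8.55 and 8.38 (-0.17). Under the series matrix values the median of the family was -0.011, and after quantile normalization it was -0.028, only -0.002 from the median over all genes, so the position of the family below other genes in CD8+ T cells was not held under that scaling. Members below 0 numbered 46 of 86 with the series matrix values and 57 of 86 after quantile normalization. Shares of all genes below 0 are not given for these settings.

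Side by side, the MSC ratio was the lower of the pair for 78 of the 86 members measured in both cell types, against 50.6% of 13781 genes, and the median difference was -0.19. The 2 genotype comparisons share no array. Across members Pearson's r between them was 0.64 and Spearman's rho 0.37. Without the paralogs and Rps24, r was 0.35 and rho 0.32 over 76 genes, beside 0.36 and 0.34 over all genes. These values describe genes on arrays of the same slide and share its scaling and probes.

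**Figure D2:**
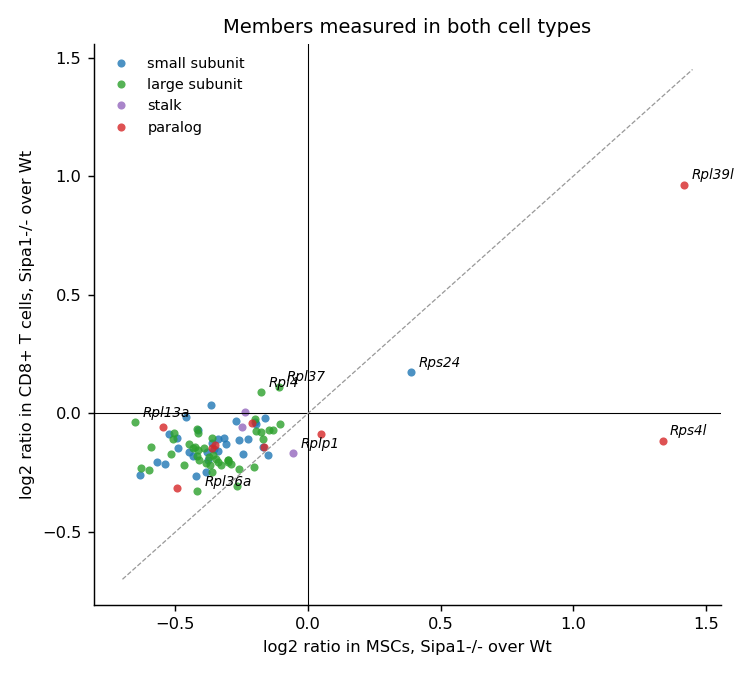
Log2 ratio of Sipa1-/- over Wt in CD8+ T cells (vertical) against the ratio in MSCs (horizontal), with 1 point per member measured in both and a dashed line of equality. Most members crowd to the left of the line with both ratios below 0, and Rpl39l, Rps4l and Rps24 lie apart.

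Between the cell types the family was lower in MSCs in both genotypes. On the Wt arrays 81 of 86 members were lower in MSCs than in CD8+ T cells, against 53.4% of all 14225 genes and 60.0% of the other genes in the top 10% of signal, with a median log2 ratio of -0.76, a signal 40.9% lower. At least 2-fold lower were 8 members, against 12.8% of all genes, and 2 were at least 2-fold higher, against 17.3% of all genes. On the Sipa1-/- arrays 82 of 86 were lower in MSCs, against 57.1% of all 14300 genes and 64.7% of the other genes in the top 10% of signal, and the median was -0.93, a signal 47.7% lower. Here 34 members were at least 2-fold lower, against 18.7% of all genes, and 2 were at least 2-fold higher, against 21.9%. Medians over all genes were -0.06 and -0.18. These 2 comparisons use the same 4 arrays as the genotype comparisons and are no independent support for them. Cell cycle genes were higher in MSCs for 14 of 14 in Wt (median 0.86) and lower for 14 of 14 in Sipa1-/- cells (median -1.08), and 12 of 12 measured B-lineage genes were higher in MSCs in Wt (median 4.25); their part was not tested. The medians of the family were -0.30 and -0.41 with the series matrix values, -0.18 and -0.25 after quantile normalization and -0.99 and -1.16 with arrays centered on their median. After quantile normalization all genes had medians of -0.094 and -0.23, so that the family lay only -0.087 and -0.024 from them, and under the series matrix and quantile settings 0 members were 2-fold lower.

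The lowest members in Wt were Rpl17 (6.33 in MSCs beside 7.47 in CD8+ T cells, ratio -1.14), Rps27 (7.49 and 8.62, -1.13) and Rps21 (7.01 and 8.10, -1.10). In Sipa1-/- cells they were Rpl13a (6.24 and 7.67, -1.43), Rpl18 (5.92 and 7.32, -1.41) and Rpl12 (6.90 and 8.24, -1.34). Of the other members named for their roles, Rps6 had ratios of -0.92 in Wt and -1.25 in Sipa1-/- cells, Rps3 -0.92 and -1.14, Rps19 -0.53 and -0.96, and Rpsa -0.63 and -1.08. All 4 were lower in MSCs in both genotypes. In the large subunit the pairs were -1.005 and -1.03 for Rpl5, -0.69 and -0.98 for Rpl11, -0.64 and -1.07 for Rpl22, -0.78 and -0.90 for Rpl38 and -0.45 and -0.51 for Rpl10. The stalk proteins had -0.70 and -0.90 (Rplp0), -1.05 and -0.93 (Rplp1) and -0.61 and -0.86 (Rplp2). Rplp1 was the one named stalk protein whose ratio was nearer to 0 in Sipa1-/- cells. Rps27a had -0.12 in Wt, where a dim probe at levels of -4.86 and -5.28 entered its mean, and -0.67 on its bright probe alone. Taken over all 4 comparisons, 72 of the 77 members other than paralogs had 4 ratios below 0, and so had 4 of the 9 paralogs measured in all of them. The share of all genes with 4 ratios below 0 was not computed, so these counts have no background. The 4 ratios use the same 4 arrays and do not count as separate observations.

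**Figure D3:**
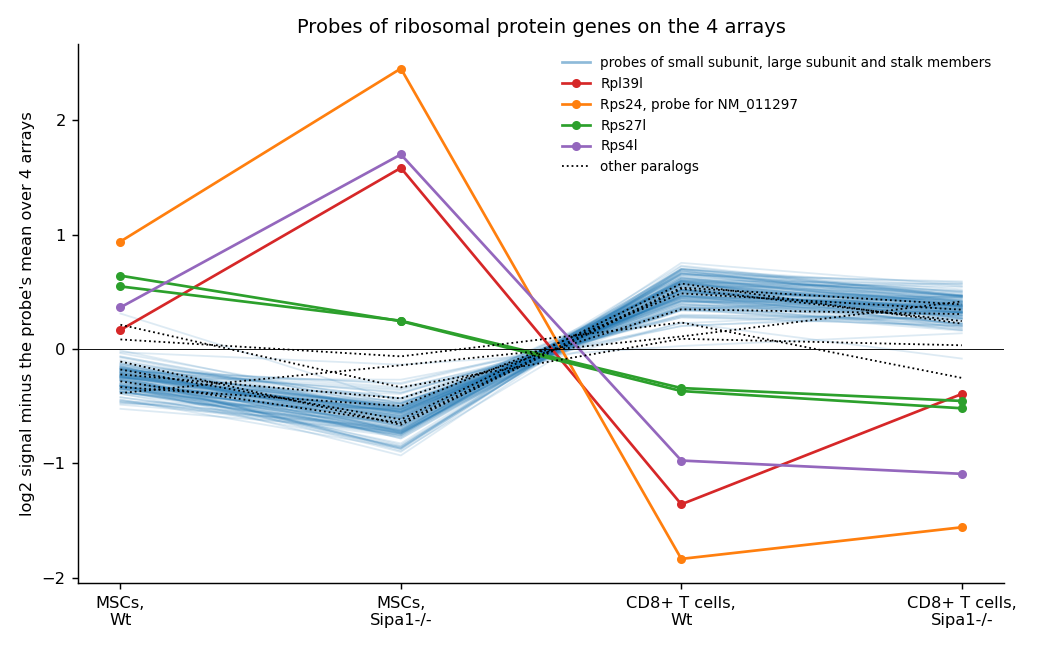
Log2 signal of each member probe minus its own mean over the 4 arrays (vertical) on the 4 arrays (horizontal), for the 143 probes that passed the flags on all arrays. The 130 probes of small subunit, large subunit and stalk members (blue) run as 1 bundle with the lowest values on the Sipa1-/- MSC array, while the Rps24 probe for NM_011297, Rpl39l, Rps4l and both Rps27l probes (colored lines) run the other way between cell types.

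Rps24 was the exception among the core proteins, and its probes disagreed. Its messenger RNA is known to be spliced into forms that differ in short exons near the end of the coding sequence. The probe annotated to transcript NM_011297 had levels of 5.79 and 7.30 in Wt and Sipa1-/- MSCs and of 3.01 and 3.29 in Wt and Sipa1-/- CD8+ T cells. It was high in MSCs, higher in Sipa1-/- MSCs, and low in T cells. The probe annotated to NM_207634 had 5.54, 5.34, 6.19 and 6.32 in the same order. The probe annotated to NM_207635 had 7.99, 7.84, 8.43 and 8.55. These 2 probes ran with the rest of the family between cell types.

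The NM_011297 probe thus had a log2 ratio of 1.51 in MSCs, 2.85-fold, beside -0.20 and -0.15 for the other probes of the gene. In Wt it was 6.85-fold higher in MSCs than in CD8+ T cells (log2 ratio 2.78, against -0.65 and -0.44), and in Sipa1-/- cells 16.1-fold (4.01, against -0.97 and -0.71). The CD8+ T genotypes differed by 0.28 on this probe and by 0.12 on each of the others. The gap between probes of 1 gene on the same arrays is not touched by a shift of an array, and it was 1.66 to 1.71 log2 units in the MSC pair. Each Rps24 probe was printed on 1 spot, so no spot SD was available, and the mean over the 3 probes, 0.39 in MSCs, describes none of them. With the brightest probe alone Rps24 was at -0.15 in MSCs, and its cell type ratios were below 0 as well.

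The paralogs were the most varied group, with MSC ratios from -0.55 to 1.42 over 10 measured genes. Rpl39l, a copy of Rpl39 best known from male germ cells, had levels of -1.07 on the Wt and 0.35 on the Sipa1-/- MSC array, and of -2.59 and -1.63 on the Wt and Sipa1-/- CD8+ T arrays. It was higher on the Sipa1-/- array in both cell types, by 1.42 and 0.96, and higher in MSCs than in CD8+ T cells by 1.52 in Wt and 1.98 in Sipa1-/- cells. Rpl39l was measured by 1 probe on 1 spot, so it had no spot SD of its own. Its parent gene Rpl39 had ratios of -0.30 in MSCs beside -0.20 in CD8+ T cells over 5 probes.

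Rps4l, the copy classed as a transcribed pseudogene, had levels of 2.06 and 3.40 on the Wt and Sipa1-/- MSC arrays and of 0.72 and 0.61 on the CD8+ T arrays. Its ratio was 1.34 in MSCs beside -0.12 in CD8+ T cells, and it was higher in MSCs by 1.34 in Wt and 2.79 in Sipa1-/- cells. Rps4l too was measured by 1 probe on 1 spot. Its X-linked relative Rps4x was at -0.32 in MSCs beside -0.10 in CD8+ T cells. Rps27l, a paralog of Rps27 that p53 induces, was also higher in MSCs than in CD8+ T cells in both genotypes. Its probes had levels of 5.16 and 4.48 in Wt MSCs, 4.86 and 4.08 in Sipa1-/- MSCs, 4.27 and 3.47 in Wt T cells and 4.16 and 3.32 in Sipa1-/- T cells. The differences were 0.95 in Wt and 0.73 in Sipa1-/- cells, opposite to Rps27, and its genotype ratios of -0.35 and -0.13 were like those of the family.

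Rpl3l, the copy of Rpl3 made in heart and skeletal muscle, had levels of -1.01 and -0.61 on the MSC arrays with a ratio of 0.40. On both CD8+ T arrays it was not well above background. Its measured levels there were -7.71 in Wt and -7.55 in Sipa1-/- cells. The lowest levels of any spot well above background on those arrays were -5.56 and -5.49. No fold between cell types is given, since the limit for this spot is not known. Markers of skeletal muscle were measured on the same MSC arrays, with 9 of 10 higher on the Sipa1-/- array, a median of 0.47 and summed levels of 5.81 and 6.44, and their part in the Rpl3l value was not tested. Rpl10l, the retrogene that stands in for Rpl10 during male meiosis, did not pass the flags in any comparison.

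The other copies resembled the family or were dim. Rpl22l1 had ratios of -0.17 in MSCs beside -0.14 in CD8+ T cells (levels 5.46, 5.30, 6.28 and 6.14 on the Wt and Sipa1-/- MSC and the Wt and Sipa1-/- CD8+ T arrays). Rpl32l had -0.36 and -0.15, Rpl36al -0.50 and -0.32, and Rpl37rt -0.21 and -0.04. Rpl32l and Rpl37rt are retrocopies whose probes may also bind the parent messenger RNA, which was not tested. Rpl7l1, a factor in ribosome assembly, was at -0.55 in MSCs beside -0.06 in CD8+ T cells, with levels of -0.23, -0.78, -0.35 and -0.41. The 2 probes of Rps23rg1 were dim and differed in sign in both genotype comparisons, at 0.24 and -0.15 in MSCs and 0.31 and -0.48 in CD8+ T cells. Rps19bp1, set apart from the members, had levels of 2.19 and 1.57 in MSCs (-0.62) and 1.63 and 1.69 in CD8+ T cells (0.06).

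**Figure D4:**
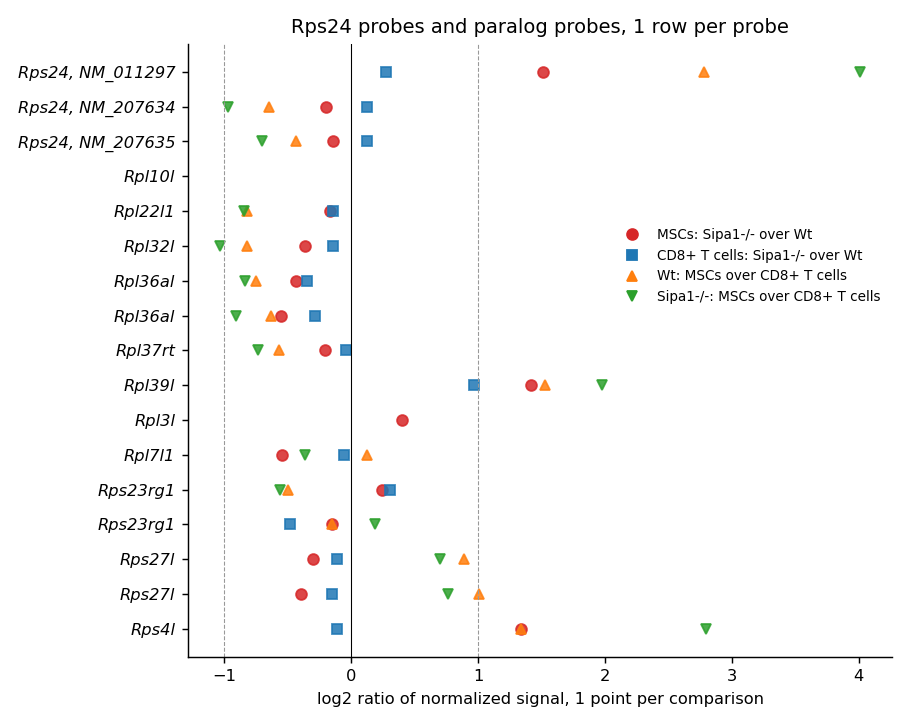
Log2 ratios (horizontal) of the 3 Rps24 probes and of each paralog probe (1 row per probe) in the 4 comparisons, with dashed lines at 2-fold and points only where the flags were passed on both arrays. The Rps24 probe for NM_011297 reaches 4.01 between the cell types in Sipa1-/- mice while the other Rps24 probes lie between -0.97 and 0.12, and Rpl10l has no point.

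Apart from Rps24, most probes of the same gene ran closely together in the genotype pairs. Leaving out paralogs, the NM_011297 probe and probes below the 75th percentile of their arrays, 41 genes had 2 or more probes, and the median SD between probes of a gene was 0.050 in the MSC pair and 0.046 in the CD8+ T pair. The dimmest probe of a gene had the lower ratio in 30 of these 41 genes in MSCs and in 34 of 41 in CD8+ T cells, by a median of -0.05 and -0.06. Over such probes the level and the ratio correlated with Spearman's rho of 0.32 over 130 probes in MSCs and 0.68 over 129 probes in CD8+ T cells, so that part of the spread among members followed the brightness of their probes. In the MSC pair Rpl30 had ratios of -0.32 and -0.31 on bright probes and -0.77 on a probe at levels of 1.98 and 1.20. That dimmer probe is annotated to another transcript than the bright probes, so brightness and transcript cannot be told apart. Between cell types in Wt it was at 0.08, beside -1.08 and -1.16 on the bright probes, so the mean of Rpl30 is uncertain.

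Values of members with and without the pyrimidine run at the start are given side by side, without a test. The 13 members other than paralogs with the run had a median log2 ratio of -0.30 in MSCs, between -0.54 and -0.17, and the 44 with windows but without it had -0.36, between -0.65 and 0.39. In CD8+ T cells the medians were -0.16 and -0.13. Between cell types they were -0.86 and -0.76 in Wt and -0.96 and -0.94 in Sipa1-/- cells.

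Other genes of translation were described from lists that were written with earlier results of these data known. Their counts in MSCs stand beside 48.2% of all genes lower, 11.3% at least 2-fold lower and a median of 0.04, and those in CD8+ T cells beside 53.9%, 1.4% and -0.02. Fau and Rack1, ribosomal proteins with other symbols, had ratios of -0.16 and -0.24 in MSCs beside 0.01 and -0.12 in CD8+ T cells, and in MSCs they thus lay within the range of the family. Elongation factors and other TOP messenger RNAs were lower in MSCs for 11 of 12, with a median of -0.41. Eef1a1, which brings aminoacyl-tRNA to the ribosome, went from 5.88 to 5.67 (-0.21), Eef2, which moves the ribosome along, from 4.56 to 4.16 (-0.40), and Nap1l1 from 4.12 to 2.98 (-1.14), the 1 gene of the list that was 2-fold lower. Tpt1 was higher, from 7.08 to 7.21 (0.14). Initiation factors were lower for 24 of 26 measured, with a median of -0.46 and 0 that were 2-fold lower.

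Genes that build the ribosome differed more in MSCs than the genes of its proteins. All 32 ribosome biogenesis genes were lower on the Sipa1-/- array, with a median of -0.96, and 15 of them were at least 2-fold lower, against 0 members. The list had a median level of 1.42 in Wt MSCs, and the part of probe brightness in this gap was not tested. The list was not run after quantile normalization, so the gap was measured under the main setting only. Fbl, the methyltransferase of ribosomal RNA, went from 6.02 to 4.64 (-1.39), Nop56, its partner, from 3.32 to 1.84 (-1.48), and Dkc1, the pseudouridine synthase, from -0.77 to -2.23 (-1.45). Npm1, nucleophosmin, went from 5.05 to 4.06 (-0.99), Polr1b, a subunit of RNA polymerase I, from 0.67 to -0.37 (-1.04) and Ubtf, its cofactor, from 3.84 to 3.20 (-0.64). These genes are known to follow growth and division, and the cell cycle and B-lineage genes given above differed on the same arrays; their part was not tested. In CD8+ T cells 30 of 32 were lower with a median of -0.23 and 0 that were 2-fold lower.

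Mitochondrial ribosomal proteins, whose genes are distinct from the family, were lower in MSCs for 74 of 78 with a median of -0.61, and 5 were 2-fold lower, a smaller share than the 11.3% of all genes. In CD8+ T cells 74 of 78 were lower as well, with a median of -0.18. Between cell types in Wt they had a median of 0.04, with 37 of 78 lower in MSCs beside 53.4% of all genes. Ribosome biogenesis genes had -0.11 there and the elongation factor list -0.54, while the cytosolic family was at -0.76. Regulators of ribosome production were mixed in MSCs, with 8 of 12 lower and a median of -0.40. Mtor went from 1.00 to -1.40 (-2.40), Rptor from 2.83 to 1.28 (-1.55) and Mycn from -0.40 to -3.38 (-2.98), the 3 that were 2-fold lower, and Eif4ebp1, which restrains initiation, went from 3.62 to 4.09 (0.47). Myc went from 0.14 to -0.29 (-0.43), and Larp1, which binds TOP messenger RNAs, from 4.15 to 3.43 (-0.72). Of 11 regulators measured in CD8+ T cells 8 were lower and none was 2-fold different.

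**Figure D5:**
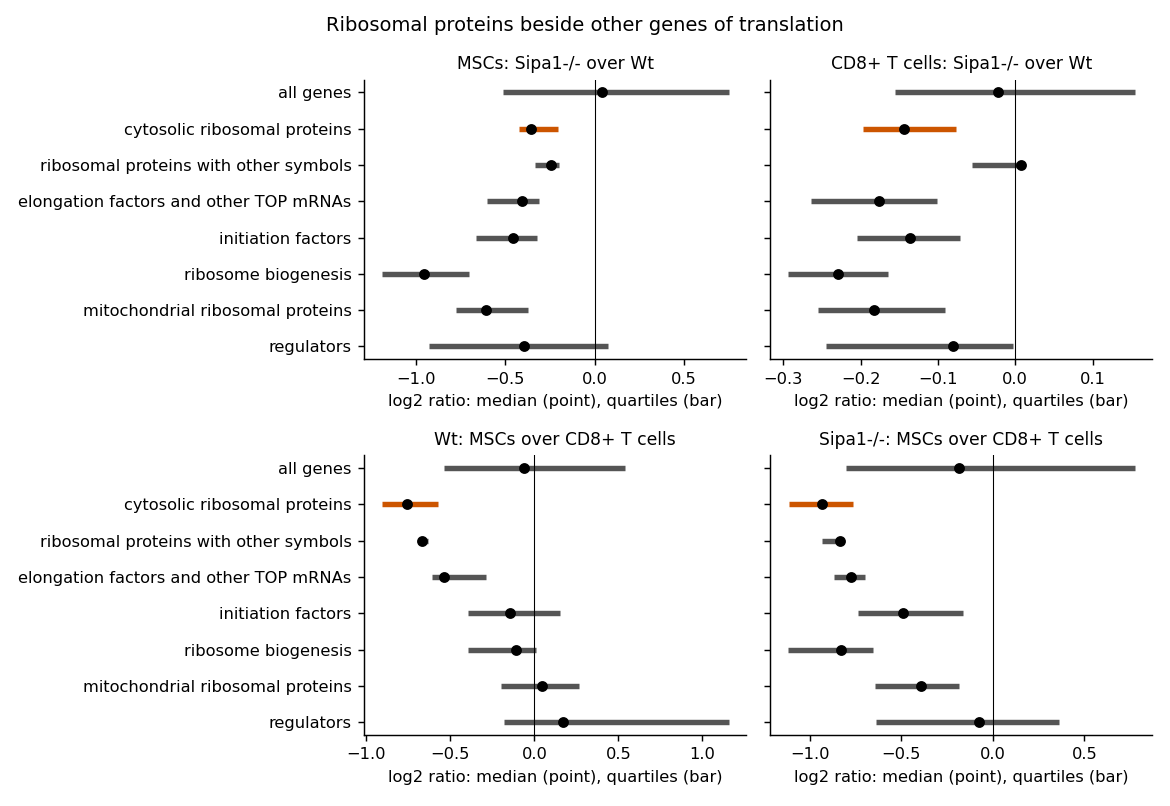
Median (point) and quartiles (bar) of log2 ratios (horizontal, with its own scale in each panel) for all genes, the cytosolic ribosomal proteins and 6 lists of other translation genes in the 4 comparisons. In MSCs the ribosome biogenesis list lies lowest at -0.96, and between cell types in Wt the cytosolic ribosomal proteins lie lowest at -0.76.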

How the data were processed

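RNA of 4 conditions, MSCs and CD8+ T cells of Wt and Sipa1-/- mice, was hybridized to Agilent single-color mouse arrays, 1 per condition. The deposited scanner values are spot intensities that the authors' Feature Extraction software had corrected for background and not normalized between arrays (version 12.0.3.1 per the file headers, 9.1 per the labels). The authors' series matrix holds the same intensities times 1 constant per array, between 0.941 and 1.34, and how these were chosen is not given in the sources used here. Depth has no meaning for arrays, and the number of arrays limits the precision. All 4 arrays shared 1 slide and 1 scan.

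Spots that were not saturated, had no non-uniform signal or background and were well above background on both arrays of a pair were kept, log2 signals were shifted by the 75th percentile of non-control spots, and spots were averaged per probe and probes per gene. Symbols came from RefSeq accessions (GRCm38.p6) and covered 57.6% of spots. With 1 array per group there were no tests, SEs or p-values, counts of genes used a threshold of 1 on the log2 scale, and lists were described by counts and medians beside those over all genes. The procedure was run on simulated data in which randomly drawn single genes had changes past 2-fold. That simulation held no small shift of a whole family, so it cannot speak for one. Members, lists and the rule for named genes were chosen with earlier results of these data known. That rule named the stalk proteins, Rpsa, all paralogs, 10 members with well known roles, Rps19bp1, the 5 highest and 5 lowest members per genotype comparison and the 3 highest and 3 lowest per cell type comparison. Some items that these rules name are not reported here. Members named as parents of paralogs, Rpl15, Rpl35 and Rpl30 were added after their values were seen. So were the markers Vpreb1, Vpreb3, Igll1, Thy1, Cd2, Lck and Zap70. In RefSeq, 6 further symbols fit the rule and had no probe. Alternatives were other scalings, quantile normalization, the series matrix values, other uses of flags and probes, and a filter on signal. The dimmest probe of each gene, leaving out paralogs, and normexp (offset 50) of median spot signals were chosen after the data had been seen. Computing used R 4.3.3 with limma 3.58.1 and Python 3.11.15 with matplotlib 3.10.9, pandas 2.3.3 and numpy 2.4.6.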

Additional observations from a re-analysis of the deposited data

Results flagged for a closer look

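For 3 members the log2 ratio of Sipa1-/- over Wt had opposite signs in the 2 cell types, each past 2 spot SDs, and this difference was not tested since each condition has 1 array. Rps4l was at 1.34 in MSCs beside -0.12 in CD8+ T cells, where it turned to 0.016 under the series matrix values. Rpl4, a large subunit protein, was at -0.18 and 0.088. Its ratios were both above 0 under the series matrix values (0.030 and 0.22) and after quantile normalization (0.13 and 0.25), and both below 0 with arrays centered on their median (-0.31 and -0.060). Rpl37 was at -0.11 and 0.11 on a single dim probe with levels between -4.29 and -4.02 on the 4 arrays. Its ratios were both above 0 under the series matrix values (0.096 and 0.24) and with normexp (0.026 and 0.089), and both below 0 after quantile normalization (-0.26 and -0.025) and with arrays centered on their median (-0.25 and -0.036). The opposite signs of Rpl4 and Rpl37 thus depended on the processing.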

How the results depend on the processing

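The median log2 ratio of the family stayed below 0 in all 4 comparisons under each of the 11 alternatives run, and 0 members were 2-fold lower in the MSC genotype pair under each of them. In the order MSC genotype, CD8+ T genotype, MSCs over CD8+ T cells in Wt and in Sipa1-/- mice, the medians of -0.36, -0.14, -0.76 and -0.93 became -0.49, -0.29, -0.99 and -1.16 with arrays centered on their median, -0.091, -0.028, -0.18 and -0.25 after quantile normalization, and -0.15, -0.011, -0.30 and -0.41 with the series matrix values. With the brightest probe the Wt cell type median was -0.71, and with normexp on the median spot signal that of Sipa1-/- mice was -0.90. Members below 0 numbered 82, 80, 81 and 82 in the order above. They numbered 65, 46, 74 and 78 with the series matrix values and 67, 57, 64 and 70 after quantile normalization. Settings that shift a whole array move all genes alike. The median of all genes, 0.04, -0.02, -0.06 and -0.18 in the same order, was -0.10, -0.17, -0.29 and -0.41 with arrays centered on their median and 0.25, 0.11, 0.39 and 0.34 with the series matrix values, and the family stood -0.40, -0.12, -0.70 and -0.75 from it in all 3 settings. After quantile normalization these distances were -0.10, -0.002, -0.09 and -0.02; the cause of that move was not tested beyond the construction of the method, which equalizes the brightest spots. Members at least 2-fold lower in MSCs than in CD8+ T cells numbered 8 in Wt and 34 in Sipa1-/- mice, against 12.8% and 18.7% of all genes. They numbered 40 and 64 with arrays centered on their median, and 15 in Wt with the dimmest probe. The shares of all genes under these alternatives are not given, and centering on the median also lowered the median of all genes, so these counts cannot be read as a result about the members.

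The share of higher genes among all genes past 2-fold, 63.1%, 65.5%, 57.4% and 54.0%, was 74.1%, 76.3%, 76.6% and 76.3% with the series matrix values. With arrays centered on their median it was 52.5% in the CD8+ T genotype pair, 45.5% in Wt and 42.9% in Sipa1-/- mice between cell types. In the CD8+ T genotype pair it was 52.4% with normexp, and 48.9% when genes below the median signal were left out. Of 157 single values of the 40 named genes, 32 changed sign under the series matrix values, 25 after quantile normalization, 7 with arrays centered on their median, and 5 or fewer under each other alternative, and 0 of the 29 values past 2-fold did so under any alternative. Of these 29, 6 were still past 2-fold under the series matrix values and 6 after quantile normalization. No paired analysis was possible because there was 1 array per condition. Normexp of mean spot signals, which had been planned, was not run, since that column was not used here. The signal of a dim probe, such as those of Rpl37 and Rps23rg1, limits what can be read from its ratio.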
